A study of Mus musculus with 4 samples.

Results

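The genes described here encode the nuclear subunits of mitochondrial complex I and the assembly factors that share their Nduf name. Members were all protein-coding genes on the primary chromosomes whose mouse symbol starts with Nduf, which gave 46 of the 32617 genes in the deposited table. Of these, 38 are subunits and 8 are assembly factors, named Ndufaf. Messenger RNA was sequenced in 4 libraries of macrophages grown from mouse blood. All 4 share their origin in mice aged 10 to 16 weeks, with blood of 60 animals (1 ml each) pooled and CD11b-selected monocytes. Culture lasted 6 or 7 days in 30 ng/ml M-CSF, the growth factor that turns monocytes into macrophages. The strain is written C57BL/6J, but C57BL/7J for the peptide samples. The M-CSF group, with 1 library, received nothing further. The classically activated macrophages (CAM, 1 library) were given lipopolysaccharide at 500 ng/ml with 20 ng/ml IFNγ. The CAM+mML56 group (2 libraries, called peptide library 1 and 2 here by their column numbers) was activated in the same way in the presence of mML56, which covers residues 1 to 56 of the membrane protein Ninj1 and stands in for its soluble form. Nothing in the labels states that they were separate cultures, so a p-value here reflects just how far the peptide pair differed, a spread that may be technical.

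Complex I takes electrons from NADH, passes them through a flavin and a chain of iron-sulphur clusters to ubiquinone, and pumps protons across the inner mitochondrial membrane. Its matrix arm carries the redox centres, and its membrane arm pumps protons. Core subunits do the chemistry. Accessory subunits surround and stabilise them, and assembly factors join the modules but are absent from the finished enzyme. The mitochondrial genome encodes the core of the membrane arm (the mt-Nd genes), and nuclear genes encode the rest. Macrophages activated with lipopolysaccharide and IFNγ are known for reduced mitochondrial respiration, and complex I is a known source of reactive oxygen species in them.

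Unless stated otherwise, values of 4 libraries are listed with M-CSF first, CAM next and the peptide pair last. Total estimated counts were 12414586, 10333986, 12842680 and 12119427, of which members held 12993, 4870, 10221 and 9692. Levels are given as CPM, counts scaled to a common library size by TMM. Activation genes rose in CAM (5 of 5 on the list), beside 21.4% of all genes. With peptide against CAM, Il12b, Cxcl9 and Nos2 fell (log2 -7.29, -2.01 and -1.34). Irf1 rose (log2 1.12) and Gbp2 was not called (log2 0.59). Of all genes, 17.1% fell and 20.6% rose there. Against M-CSF all 5 were higher with peptide, beside 22.1% of all genes. All 10 rows of the macrophage list had counts in every library, and in CAM against M-CSF 5 rose (Adgre1, Cd14, Fcgr1 and both rows of Itgam), 4 fell (Cd68, Csf1r, Lyz2 and Mrc1) and Mertk was not called. Of these 10, Cd68 and Fcgr1 rose with peptide against CAM and 5 fell. Cd68 stood at 13.4, 1.19, 39 and 32.8 CPM and was the one row with CAM lowest. Summed platelet markers, at 77.4, 5.42, 13.4 and 11.6 CPM, were also lowest in CAM, with Pf4 at 74.3, 2.06, 11.8 and 8.65, Itga2b at 1.63 to 2.92 and Gp1bb at 0 throughout. Summed dendritic cell markers were highest in CAM, at 7.26, 26.75, 8.17 and 9.4 CPM. Of their 4 genes only Xcr1 was called, higher in CAM and lower with peptide, at 2.07, 23.8, 5.42 and 5.65 CPM. Summed erythroid markers reached at most 2.27 CPM, in CAM, with Hba-a1 at 0 throughout. The 1 erythroid marker tested was called lower with peptide than in CAM by edgeR, but not by DESeq2. Summed markers of neutrophils, B cells and T and NK cells stayed between 1.2 and 7.8 CPM, with Elane, Ly6g, S100a9, Cd3e and Cd3g at 0 in all libraries. The neutrophil sum was lowest with M-CSF, at 2.528, 7.797, 2.925 and 5.82 CPM. Of the 2 neutrophil markers tested, 1 was called higher in CAM and also with peptide against M-CSF. The part of these markers in the results was not tested. Some widely expressed genes had low or zero estimates. Actb stood at 74.2, 44.4, 75.1 and 110 CPM, and the ribosomal protein gene Rplp0 at 0.519, 19.9, 1.89 and 1.41, highest in CAM. Atp5a1, a subunit of the ATP synthase, had 143, 0, 86 and 53 counts (all chosen after their values were seen). An exact 0 may be absence or a failed estimate, and which of them holds was not tested, for these genes or for the markers at 0.

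Nuclear complex I transcripts were lower in CAM than with M-CSF and higher again in the peptide libraries. The summed level of the 46 members was 842.2, 527.4, 879.3 and 805.8 CPM. CAM was the lowest of the 4 libraries for 31 of the 45 members with counts, and for 32.7% of all genes tested. Genes with counts numbered 17446, 14772, 16653 and 16916, fewest in CAM, and the part of this in the pattern was not tested. Ndufa4l2, a hypoxia-induced relative of Ndufa4, had no count in any library and could not be tested. The other 45 members passed the filter on low counts, as did 14104 genes in all. In bulk RNA, fewer cells of a type and less RNA per cell cannot be told apart.

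**Figure D1:**
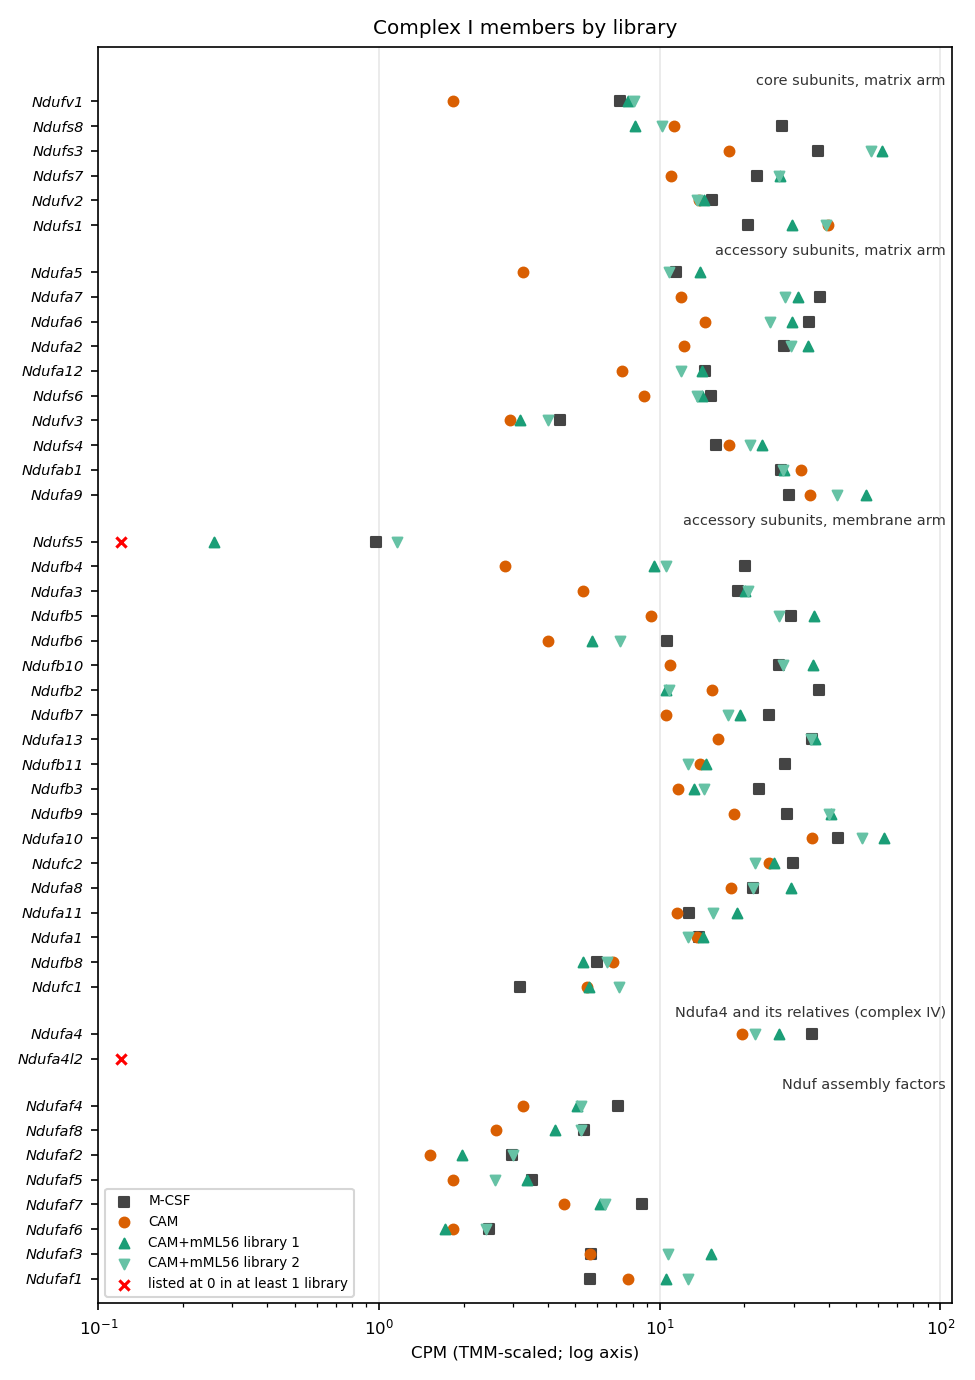
Level of complex I members in each library, in CPM on a log axis, grouped by role and ordered within a role by the CAM to M-CSF difference. CAM (circles) is the lowest of the 4 libraries for 31 of 45 members (32.7% of all genes), and crosses mark Ndufs5 and Ndufa4l2, listed at 0 in at least 1 library. 1 member is not drawn.

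Activation was examined first, by comparing CAM with M-CSF. With edgeR's quasi-likelihood test and Benjamini-Hochberg adjustment over all genes, 20 of 45 members (44.4%) fell, 1 rose and 24 were not called. Over all 14104 genes tested, 23.0% fell and 21.4% rose. By size alone, 20 members were at least 2-fold lower, as were 26.3% of all genes. The median log2 fold change of the members was -0.96, beside -0.07 over all genes. All 20 members that fell were subunits, with log2 fold changes from -2.83 to -0.84. Where DESeq2's Wald test was used instead, 5 of 45 members (11.1%) were lower, beside 10.7% of all genes, and none was higher (1 at an unadjusted p under 0.05). Those 5 were Ndufa3, Ndufa7, Ndufb4, Ndufb5 and Ndufs3. The edgeR count thus stood above the share of all genes, and the DESeq2 count stood near it. M-CSF and CAM each have a single library, which edgeR assumes to vary like the peptide pair.

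Among the core subunits of the matrix arm, Ndufv1, Ndufs3, Ndufs7 and Ndufs8 fell, Ndufs1 rose, and Ndufv2 was not called. Ndufv1 binds NADH and the flavin where electrons enter. It stood at 7.2, 1.84, 7.74 and 8.07 CPM. CAM lay far below the other 3 libraries, which were close together, although its value rests on 17 counts. The log2 fold change of Ndufv1 between CAM and M-CSF was -1.96 (SE 0.469, edgeR adjusted p = 0.00427, and 0.13 with DESeq2). Ndufs8, which holds iron-sulphur clusters near the ubiquinone site, stood at 27.3, 11.2, 8.17 and 10.2 CPM, so only M-CSF was high. Its log2 fold change was -1.29 (SE 0.314, edgeR adjusted p = 0.00475, and 0.137 with DESeq2).

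Ndufs1, the iron-sulphur subunit that passes electrons on from the flavin module, went the other way, at 20.7, 39.7, 29.5 and 39 CPM. M-CSF was the lowest library, and peptide library 2 reached the CAM level. The log2 fold change of Ndufs1 was 0.94 (SE 0.265, edgeR adjusted p = 0.0112). This call was lost with DESeq2 (adjusted p = 0.0972), without TMM scaling (0.193, log2 0.47) and with an offset for transcript length and GC content (0.0611). Ndufv2, the partner of Ndufv1 with its own iron-sulphur cluster, differed little, at 15.4, 13.8, 14.4 and 13.6 CPM (log2 -0.17, SE 0.301, edgeR adjusted p = 0.685). Transcripts of subunits that sit side by side in the electron entry site thus had log2 fold changes from -1.96 to 0.94.

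Of the 10 accessory subunits of the matrix arm, 5 (50%) fell (Ndufa2, Ndufa5, Ndufa6, Ndufa7 and Ndufa12), beside 23.0% of all genes. None rose (none also with DESeq2 or at an unadjusted p under 0.05), and the median log2 fold change was -0.89. DESeq2 called 1 of the 10 (10%) lower, beside 10.7% of all genes. Ndufa5, which lies along the side of the matrix arm, stood at 11.4, 3.25, 13.9 and 10.8 CPM. CAM stood alone below the other 3. The log2 fold change was -1.81 (SE 0.395, edgeR adjusted p = 0.00233, and 0.0757 with DESeq2). Ndufa7 stood at 37.1, 11.9, 31.2 and 27.9 CPM, with a log2 fold change of -1.64 (SE 0.267, edgeR adjusted p = 0.000252). Ndufs4, whose loss in humans causes Leigh syndrome, was not called, at 15.9, 17.7, 23.1 and 20.9 CPM (log2 0.15, SE 0.28, edgeR adjusted p = 0.688). Ndufab1, the mitochondrial acyl carrier protein, and Ndufa9 were also not called, with log2 values of 0.23 and 0.26.

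Of the 19 accessory subunits of the membrane arm, 10 (52.6%) fell, beside 23.0% of all genes, and none rose, with a median of -1.01. DESeq2 called 3 of the 19 (15.8%) lower, beside 10.7% of all genes. Ndufb4 had the lowest log2 fold change of the called members. Its levels were 20.1, 2.82, 9.55 and 10.5 CPM, so CAM was lowest and the peptide libraries lay between CAM and M-CSF. The log2 fold change was -2.83 (SE 0.376, edgeR adjusted p = 4.47e-05). This gene shares 19.1% of its 31-base words with the processed pseudogene Gm3244, which stood at 1.62, 5.52, 7.14 and 3.99 CPM. With the counts of both added, the log2 ratio of CAM to M-CSF was -1.38, so the size of the Ndufb4 difference is uncertain.

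Ndufa3, a small subunit at the foot of the membrane arm, stood at 19, 5.31, 20.1 and 20.6 CPM. Again CAM alone was low (log2 -1.84, SE 0.315, edgeR adjusted p = 0.000378), and Ndufa3 shares no 31-base word with another gene. Ndufb5 stood at 29.3, 9.31, 35.4 and 26.7 CPM (log2 -1.65, SE 0.299, edgeR adjusted p = 0.000577). Its antisense neighbour Mrpl47 shares 11.62% of the Ndufb5 words and had 82 to 105 counts, nearly level across the libraries. Ndufb10, which is brought into the membrane arm by the intermembrane space import pathway, stood at 26.5, 10.9, 35.1 and 27.4 CPM (log2 -1.28, SE 0.289, edgeR adjusted p = 0.00299). Ndufb2 stood at 36.8, 15.4, 10.5 and 10.8 CPM, so here M-CSF alone was high (log2 -1.26, SE 0.279, edgeR adjusted p = 0.00256). Ndufb6 stood at 10.6, 4.01, 5.76 and 7.23 CPM (log2 -1.41, SE 0.421, edgeR adjusted p = 0.0159), but shares 34.45% of its words with the antisense gene Smim27, whose counts of 62, 20, 32 and 44 moved the same way. Without the strand setting, which is not given in the sources used here, their reads cannot be told apart. The calls for Ndufb10, Ndufb2 and Ndufb6 were lost with DESeq2 (adjusted p = 0.0583, 0.0906 and 0.286). Ndufs5 was listed at 0 in CAM, with 15, 3 and 14 counts elsewhere, too few to compare.

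None of the 8 assembly factors was called (2 lower at an unadjusted p under 0.05, and none called by DESeq2), yet their median log2 fold change was -0.92. Of all genes, 23.0% fell and 21.4% rose, with a median of -0.07. The assembly factors were also few, and no test of the list was made. They were scarce, with 14 to 71 counts each in CAM, and their standard errors of 0.376 to 0.679 exceed those of most subunits. Ndufaf4, which works with Ndufaf3 on the ubiquinone module, stood at 7.13, 3.25, 5.08 and 5.24 CPM (log2 -1.13, SE 0.463, edgeR adjusted p = 0.063). Ndufaf1, part of the complex that builds an early membrane arm intermediate, was the one factor with a level in CAM above M-CSF, at 5.64, 7.69, 10.5 and 12.6 CPM (log2 0.45, SE 0.376, edgeR adjusted p = 0.357). Without TMM scaling, Ndufaf4 and Ndufaf7 were called lower (2 of 8, 25%), beside 34.6% of all genes. The same 2 factors (25%) were called lower under the length and GC offset, beside 24.3% of all genes.

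**Figure D2:**
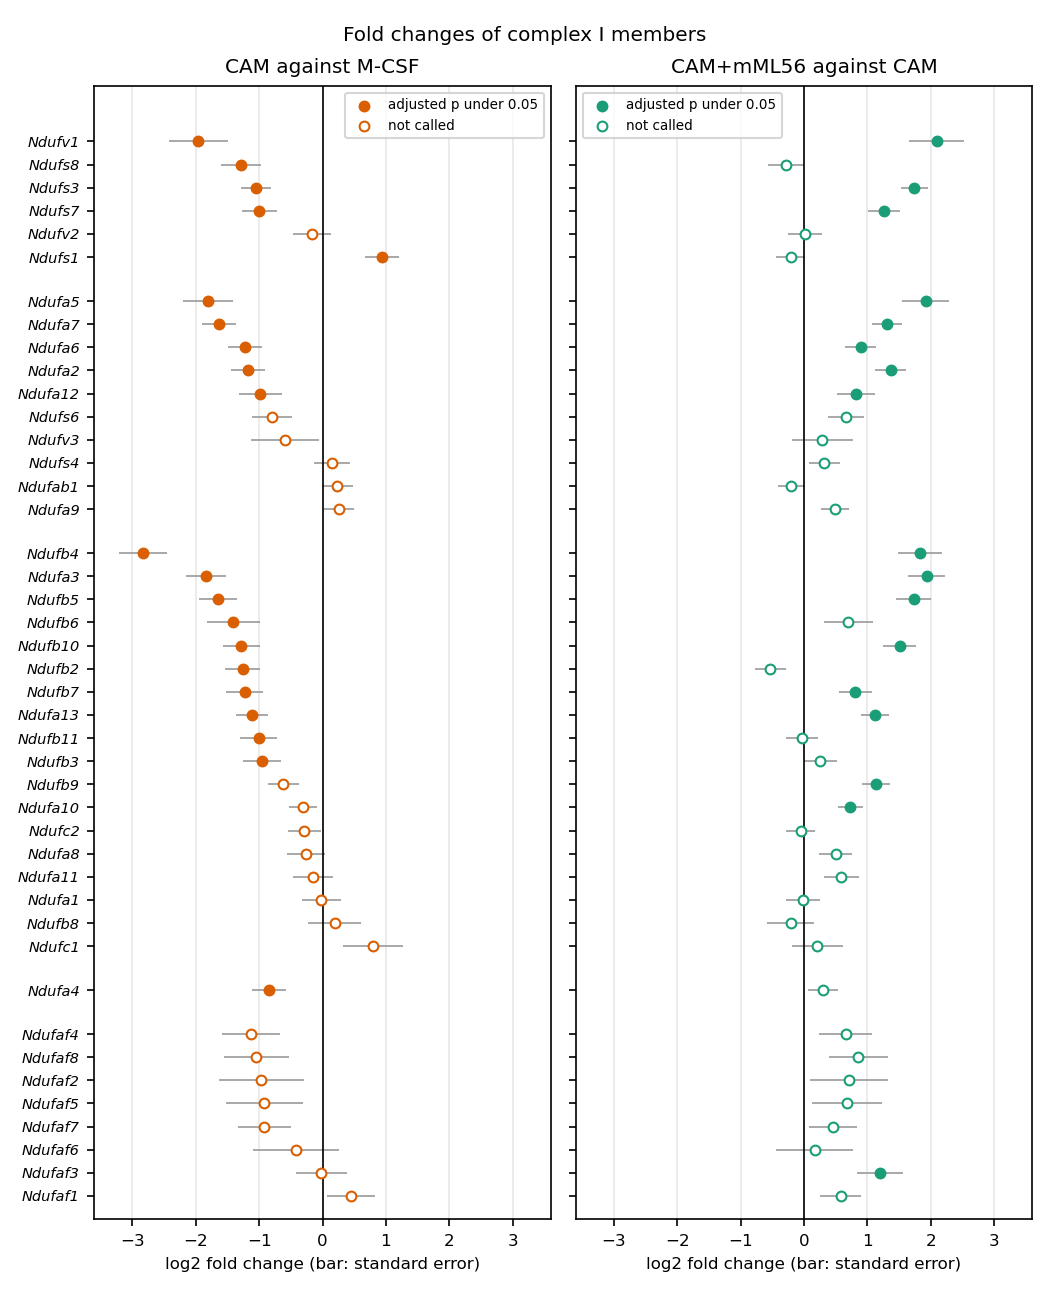
Log2 fold change of tested members for CAM against M-CSF (left) and CAM+mML56 against CAM (right), with bars of 1 standard error and filled points where the edgeR adjusted p was under 0.05. Filled points on the left run from -2.83 to -0.84 with Ndufs1 at 0.94, and on the right from 0.73 to 2.1. Ndufs5, Ndufa4l2 and 1 other member are not drawn.

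The sequences before the start sites of 3 members that fell are shown because they hold the same 6 letters, the half-site of the transcription factor NRF1, known in mammals for driving respiratory chain genes. RefSeq windows from 250 bases before to 50 after the start (build GRCm38.p6) were found for 40 of 46 members. The letters TGCGCA, which read the same on both strands, were in 11 of these 40 members (27.5%) and in 8.79% of all 27025 genes with a window. A gene counted if any of its windows held the letters, so genes with several start sites had more chances of a match. Longer NRF1 and YY1 motifs and motifs for interferon-response factors and NF-κB were searched first. The short letters given here took the place of the former, and the latter were dropped, with those matches known, so the shares are a description only. Of the 5 members that fell and hold these letters, the 3 printed have stretches that overlap no annotated exon. Capitals mark the match, and each run reads 5′ to 3′ toward the gene.
Ndufb4, chr16:37654517-37654597, minus strand: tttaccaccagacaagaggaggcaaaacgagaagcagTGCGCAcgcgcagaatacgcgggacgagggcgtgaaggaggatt
Ndufa6, chr15:82354328-82354408, minus strand: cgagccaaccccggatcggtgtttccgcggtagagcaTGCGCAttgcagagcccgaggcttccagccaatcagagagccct
Ndufb6, chr4:40279456-40279536, minus strand: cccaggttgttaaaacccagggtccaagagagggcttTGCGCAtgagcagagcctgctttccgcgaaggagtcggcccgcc
Of the 11 members with these letters, Ndufa5, Ndufa6, Ndufb4, Ndufb6 and Ndufb10 fell in CAM, and Ndufa8, Ndufa9, Ndufaf4, Ndufb8, Ndufs5 and Ndufs6 were not called. The letters ATGGCGG for YY1, searched on both strands, were in 10 of 40 members (25%) and in 4.69% of all genes with a window. Of those 10, Ndufa5, Ndufa7, Ndufb5 and Ndufs7 fell in CAM. The letters CCGGAAG for the ETS factors, also on both strands, were in 6 of 40 (15%) and in 9.93% of all genes with a window. Of those 6, Ndufb6, Ndufb7, Ndufs3 and Ndufs8 fell in CAM. Of all 45 members tested, 20 (44.4%) fell, beside 23.0% of all genes. Whether members with any of these motifs fell more often than the rest was not tested. No matches of different motifs overlapped in members. The transcript of Nrf1 itself stood at 35.2, 42.5, 68.7 and 61.1 CPM. It was not called in CAM against M-CSF (log2 0.27, SE 0.214, edgeR adjusted p = 0.327).

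The peptide was examined by comparing CAM+mML56 with CAM. This comparison uses the same CAM library as the one above, so a low value there enters both. With edgeR, 17 of 45 members (37.8%) rose and none fell (none at an unadjusted p under 0.05, and none with DESeq2), while 28 were not called. Over all genes tested, 20.6% rose and 17.1% fell. By size alone, 14 members were at least 2-fold higher, as were 20.2% of all genes, and none was at least 2-fold lower (16.7% of all genes). The median log2 fold change was 0.66 for the members and 0.05 for all genes. Both peptide libraries lay above CAM for 35 of 45 members, where 44.7% of all genes did so, both lay below for 5 (42.4% of all genes), and 5 had CAM between them. With DESeq2, 11 members (24.4%) were higher, beside 10.1% of all genes. With the length and GC offset, 11 were higher (24.4%) and Ndufs8 was lower, beside 17.5% and 17.9% of all genes. The peptide libraries differed by at least 2-fold for 1 member, Ndufs5.

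In the core of the matrix arm, Ndufv1, Ndufs3 and Ndufs7 rose. For Ndufv1 the peptide mean was 7.9 ± 0.228 CPM (SD, n = 2) against 1.84 in CAM, the highest log2 fold change of the called members at 2.1 (SE 0.434, edgeR adjusted p = 0.00243, and 0.0635 with DESeq2). Ndufs3, a core subunit near the ubiquinone site, stood at 36.5, 17.7, 61.9 and 56.4 CPM, so the peptide libraries exceeded M-CSF as well. Its log2 fold change over CAM was 1.74 (SE 0.212, edgeR adjusted p = 6.08e-05). Ndufs7, which holds the last iron-sulphur cluster before ubiquinone, stood at 22.2, 11, 26.9 and 26.5 CPM (log2 1.27, SE 0.251, edgeR adjusted p = 0.00178). The call for Ndufs7 was lost with the length and GC offset (log2 0.59, adjusted p = 0.0925). Ndufs1, Ndufv2 and Ndufs4 had log2 values of -0.21, 0.02 and 0.32 and were not called.

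Of the accessory subunits, 5 of 10 (50%) in the matrix arm and 8 of 19 (42.1%) in the membrane arm rose, beside 20.6% of all genes. DESeq2 called 3 of 10 (30%) and 6 of 19 (31.6%) higher, beside 10.1% of all genes. Ndufa3 rose to a peptide mean of 20.4 ± 0.346 CPM from 5.31 (log2 1.94, SE 0.291, edgeR adjusted p = 0.000268). Ndufa5 rose to 12.3 ± 2.15 CPM from 3.25 (log2 1.92, SE 0.365, edgeR adjusted p = 0.00138). Ndufb4 rose to 10.0 ± 0.655 CPM from 2.82 (log2 1.83, SE 0.35, edgeR adjusted p = 0.00147), and the log2 ratio with its pseudogene added was 0.9. In each of these genes both peptide libraries lay above CAM. Ndufb5 rose to 31 ± 6.13 CPM from 9.31 (log2 1.73), Ndufb10 to 31.2 ± 5.48 from 10.9 (log2 1.51), Ndufa2 to 31.6 ± 3.1 from 12.2 (log2 1.37) and Ndufa7 to 29.5 ± 2.39 from 11.9 (log2 1.31), with edgeR adjusted p from 0.000399 to 0.00119. The other called subunits, Ndufa6, Ndufa10, Ndufa12, Ndufa13, Ndufb7 and Ndufb9, had log2 values from 0.73 to 1.13. Each of these calls was lost under an alternative, all but Ndufa6 with the length and GC offset, and Ndufa6, Ndufa10, Ndufa12 and Ndufb7 with DESeq2.

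A few subunits low in CAM did not rise with peptide. Ndufb2, Ndufs8 and Ndufb11 had log2 values of -0.53, -0.28 and -0.03 against CAM and were not called (singled out after their values were seen). Both peptide libraries lay below CAM for Ndufb2 and Ndufs8, and Ndufs8 was called lower with the length and GC offset. Ndufb11 stood at 28, 13.9, 14.6 and 12.6 CPM. M-CSF was the one high library for all 3 genes.

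All 8 assembly factors had positive log2 values against CAM, from 0.17 to 1.2, as did 7313 of all 14104 genes. Only Ndufaf3 was called higher (1 of 8, 12.5%), beside 20.6% of all genes. Ndufaf3 stood at 5.7, 5.63, 15.2 and 10.7 CPM, level between M-CSF and CAM and higher in both peptide libraries (log2 1.2, SE 0.357, edgeR adjusted p = 0.0187). Ndufaf1 was not called against CAM (log2 0.58, SE 0.327, edgeR adjusted p = 0.179). With DESeq2 no assembly factor was called. With the length and GC offset the Ndufaf3 call was lost, and Ndufaf4 was called higher.

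Setting CAM+mML56 against M-CSF asked how far the peptide libraries stood from unactivated cells. It uses the libraries of the comparisons above. With edgeR, 5 of 45 members (11.1%) were higher and 5 (11.1%) lower, beside 22.1% and 19.0% of all genes, and 35 were not called. By size alone, 3 members were at least 2-fold higher and 4 at least 2-fold lower, beside 18.3% and 20.2% of all genes. The members' median log2 fold change was -0.07, beside -0.08 over all genes. Higher were Ndufaf3 (log2 1.18, SE 0.343), Ndufaf1 (1.03, SE 0.326), Ndufa9 (0.75, SE 0.213), Ndufs1 (0.73, SE 0.233) and Ndufs3 (0.7, SE 0.192). Lower were Ndufb2 (-1.79, SE 0.229), Ndufs8 (-1.57, SE 0.256), Ndufb11 (-1.04, SE 0.239), Ndufb4 (-1, SE 0.271) and Ndufb3 (-0.7, SE 0.244). Ndufa9, which sits where the arms meet, stood at 28.8, 34.4, 54.3 and 42.7 CPM, and without peptide library 2 its log2 value was 0.99. All 5 higher calls were lost with DESeq2 and with library size only. DESeq2 kept Ndufb2 and Ndufs8 as lower, and library size only gave 11 lower, beside 29.5% of all genes.

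Ndufa4 was first described as a complex I protein and is now known as a subunit of complex IV, cytochrome c oxidase. Its relative AA467197, also called Nmes1, is known to take its place there during inflammation. Ndufa4 stood at 35, 19.6, 26.5 and 21.8 CPM, and AA467197 at 0.194, 184, 496 and 534. Ndufa4 was highest with M-CSF, where AA467197 had only 3 counts. Ndufa4 fell in CAM (log2 -0.84, SE 0.268, edgeR adjusted p = 0.0222, and 0.258 with DESeq2) and was not called with peptide against CAM (log2 0.3, SE 0.238, edgeR adjusted p = 0.343). AA467197 rose in CAM by a log2 ratio of 9.88, with a 95% exact interval of 8.33 to 12.16 that covers counting error only (edgeR adjusted p = 9.44e-10). With peptide it was higher still than in CAM (log2 1.49, SE 0.179, edgeR adjusted p = 5.58e-05). The ratio of AA467197 to Ndufa4 CPM, not corrected for length, went from 0.00556 with M-CSF to 9.38 in CAM, and to 18.7 and 24.5 in the peptide libraries.

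The coding sequences of Ndufa4 and AA467197 are shown to let their likeness be seen, since reads of one could in principle count for the other. They are from GENCODE M21, on GRCm38, for 1 transcript each of Ndufa4 (chr6:11900292-11907483, minus strand, 249 bases with the stop codon) and AA467197 (chr2:122637850-122641191, plus strand, 252 bases). Capitals mark bases that are the same in both after alignment, 124 of 240 (51.7%).
Ndufa4: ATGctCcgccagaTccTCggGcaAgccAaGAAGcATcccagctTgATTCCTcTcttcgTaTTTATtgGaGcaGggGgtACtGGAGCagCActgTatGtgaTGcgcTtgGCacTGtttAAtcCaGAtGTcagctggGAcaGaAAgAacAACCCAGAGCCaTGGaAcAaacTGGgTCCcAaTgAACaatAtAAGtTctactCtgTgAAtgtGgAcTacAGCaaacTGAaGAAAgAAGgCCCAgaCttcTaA
AA467197: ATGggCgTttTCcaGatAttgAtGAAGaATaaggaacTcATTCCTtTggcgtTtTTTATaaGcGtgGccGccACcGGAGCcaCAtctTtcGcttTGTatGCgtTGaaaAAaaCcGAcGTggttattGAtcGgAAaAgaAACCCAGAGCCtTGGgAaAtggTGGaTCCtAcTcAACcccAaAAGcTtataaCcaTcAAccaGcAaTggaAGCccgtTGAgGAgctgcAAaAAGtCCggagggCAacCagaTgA
The longest shared run is 11 bases, shorter than the 31-base words compared above.

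**Figure D3:**
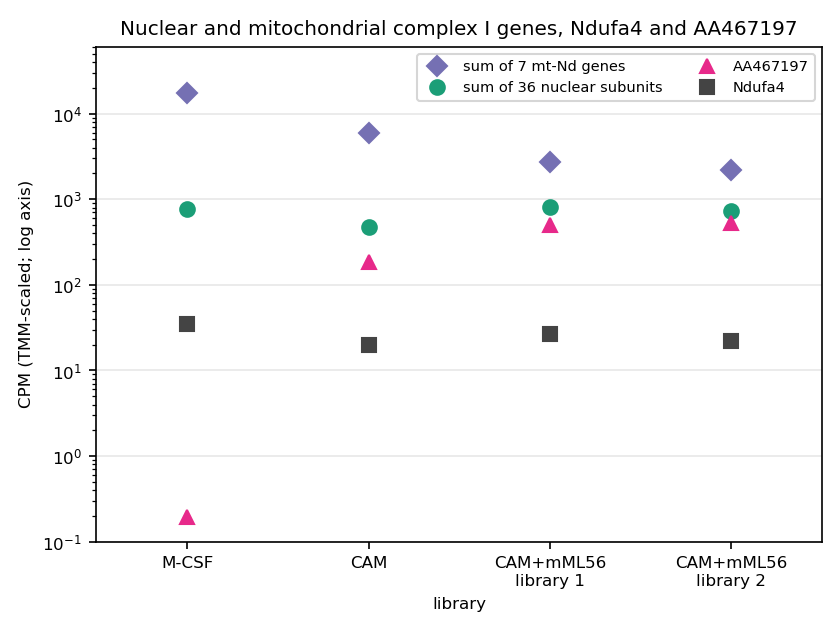
Summed level of the 7 mitochondrially encoded and the 36 nuclear complex I subunits, and levels of Ndufa4 and AA467197, in each of the 4 libraries (CPM, log axis). The mitochondrial sum goes from 17490 to 2198 while the nuclear sum stays between 478.9 and 804.7, and AA467197 goes from 0.194 to 534.

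The mitochondrially encoded subunits were lower in CAM than with M-CSF, as the nuclear ones were, but did not follow them with peptide. The 36 nuclear subunits (without Ndufa4 and Ndufa4l2) summed to 765.8, 478.9, 804.7 and 735.9 CPM. The 7 mt-Nd genes summed to 17490, 5955, 2723 and 2198 CPM, each peptide library below CAM. All 7 fell in CAM against M-CSF (median log2 -1.66) and all 7 were lower with peptide than in CAM (median -1.32) by edgeR. The ratio of the mitochondrial to the nuclear sum was 22.8, 12.4, 3.38 and 2.99. Leaving mitochondrial genes, Lars2 and Gm15662 out of the libraries kept all 21 member calls in CAM against M-CSF and all 17 with peptide against CAM. Lars2 and Gm15662, the genes with the most counts, held 6.4%, 14.1%, 10.5% and 7.79% of the libraries, highest in CAM.

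The remaining nuclear subunits of the respiratory chain, in complexes II to V, were counted in the same way. Of 38, 13 (34.2%) fell and 2 (5.26%) rose in CAM (median log2 -0.52), beside 23.0% and 21.4% of all genes. With peptide against CAM, 19 (50%) rose and none fell (median 0.63), beside 20.6% and 17.1% of all genes. In that comparison 1 was lower at an unadjusted p under 0.05, and none was lower with DESeq2. Both the 13 that fell in CAM and the 19 that rose with peptide include Atp5a1, listed at 0 in CAM. No test of a difference between the lists was made. With DESeq2, 4 of these 38 (10.5%) were lower in CAM, near the 10.7% of all genes, and 8 (21.1%) were higher with peptide, beside 10.1% of all genes. Against M-CSF, 12 of 38 (31.6%) were higher in the peptide libraries and 3 (7.89%) lower, beside 22.1% and 19.0% of all genes. DESeq2 called 6 (15.8%) higher and 1 (2.63%) lower there, beside 15.1% and 8.19% of all genes. With library size only, 6 (15.8%) were higher and 15 (39.5%) lower, beside 14.6% and 29.5% of all genes.

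Of 12 assembly factors without the Nduf name, none was called in CAM (1 higher at an unadjusted p under 0.05, none with DESeq2), and the median log2 fold change was 0.22. Of all genes, 23.0% fell and 21.4% rose in CAM. With peptide against CAM, 1 of the 12 (8.33%) rose and 1 (8.33%) fell, beside 20.6% and 17.1% of all genes. The higher one was Tmem126a, a membrane arm assembly factor (13.2 CPM in CAM, 22.2 and 20.9 with peptide, log2 0.7). The lower one was Acad9, a partner of Ndufaf1 (39.4 CPM in CAM, 18.1 and 23.6 with peptide, log2 -0.92). Neither was called with DESeq2, and without the filter on low counts none of the 12 was called higher. Among 9 tested regulators of respiratory chain genes, Esrra, the estrogen-related receptor alpha, fell in CAM and rose with peptide, but on 29, 3, 49 and 34 counts. The log2 ratio for Esrra in CAM was -2.53 (95% exact counting interval -4.89 to -0.84), and with peptide 3.43 (1.84 to 5.74). Pprc1, a coactivator of respiratory genes, also fell in CAM (23.7 to 12.7 CPM). With peptide Nrf1 rose (log2 0.61), while Gabpa, an ETS factor, and Tfb2m, needed for mitochondrial transcription, fell (log2 -0.87 and -0.79). Of the 9, 2 (22.2%) fell and none rose in CAM, beside 23.0% and 21.4% of all genes. With peptide against CAM, 2 (22.2%) rose and 2 (22.2%) fell, beside 20.6% and 17.1% of all genes. DESeq2 called none of the 9 in CAM. With peptide against CAM it called none higher (1 at an unadjusted p under 0.05) and 1 lower.

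Members have short transcripts, with a median length of 691.75 bases against 1484.5 for all protein-coding genes tested. Across protein-coding genes, the median difference between CAM and M-CSF was lower for shorter transcripts. The median log2 fold change of protein-coding genes with transcripts of 500 to 1000 bases was -0.21, and of those over 4000 bases 0.12. The 30 members between 500 and 1000 bases had a median of -0.94, and 13 of them fell (26.8% of the 4238 genes of that length fell and 18.9% rose). With peptide against CAM the order was opposite, at 0.18 and -0.23 for these lengths over all genes and 0.62 for the 30 members, of which 11 rose (25.5% of genes of that length). After an offset for length and GC content, 21 of 45 members (46.7%) were lower in CAM, beside 24.3% of all genes, 18 of the 21 main calls remained, and the median was -0.81. In the peptide comparison 10 of 17 main calls remained and the median was 0.48.

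**Figure D4:**
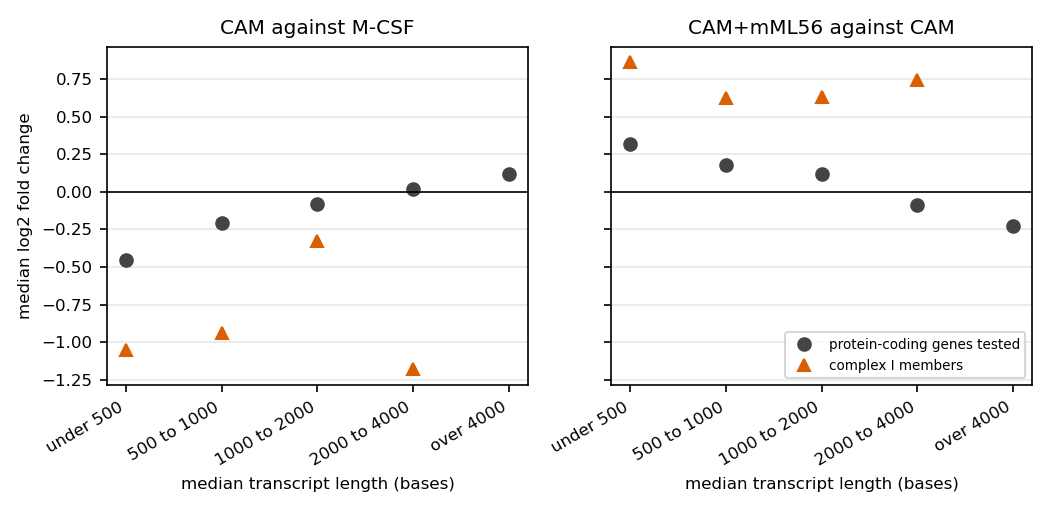
Median log2 fold change by class of median transcript length (bases) for protein-coding genes tested (circles) and complex I members (triangles), for CAM against M-CSF (left) and CAM+mML56 against CAM (right). Genes under 500 bases have medians of -0.45 and 0.32 and members of that length -1.05 and 0.86, and no member is over 4000 bases.

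Several other members share sequence with copies or antisense genes, so reads could be divided between them. Ndufa12 shares 20.17% of its 31-base words with the pseudogene Gm15920, and with the copy added its log2 ratios were -0.72 in CAM and 0.54 with peptide, in place of -0.98 and 0.82. Ndufs3 shares 21.16% with Gm12251 and Ndufb11 19.13% with Gm6444, but these copies had at most 1 count in any library. Ndufa13, also known as GRIM-19, shares 28.26% with the antisense gene Tssk6, which had 9 to 15 counts against 149 to 539 for Ndufa13. Ndufaf2, a relative of Ndufa12, shares 65.12% of its words with other genes, the most of any member, and its level is uncertain.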

How the data were processed

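The submitters' processing notes name kallisto, StringTie and build mm10. What the authors deposited is a table of estimated counts per gene, neither scaled nor all whole, and these were rounded here. Neither the kallisto version nor the annotation or strand setting is given in the sources used here. Per the labels' protocols, the kit was NEXTflex Rapid Directional mRNA-Seq.

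Groups came from sample titles. The names of the peptide columns gave the group but not which sample each holds, so libraries 1 and 2 are named by column. Counts were fitted with edgeR 4.0.16 in R 4.3.3 (filterByExpr, TMM, glmQLFTest), with 4 libraries, 3 groups and 1 residual degree of freedom. The Benjamini-Hochberg threshold was 0.05 over 14104 genes, and 13199 genes had no count. Rows without a symbol held 0.0734% of counts. Standard errors are the log2 fold change over the square root of F. Depth limits detection: 3 counts correspond to 0.194 to 0.325 CPM. The fit was tested on simulated counts drawn with the same spread in all libraries. That cannot check whether the lone M-CSF and CAM libraries vary like the peptide pair.

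Members and lists were chosen with earlier results of these data known. Named with statistics were up to 10 called members with the largest and up to 10 with the smallest log2 fold change in each comparison whose peptide libraries lay on 1 side, plus Ndufa4, Ndufa4l2, Ndufs1, Ndufs4, Ndufv1, Ndufv2, Ndufaf1 and AA467197. Others named were chosen after their values were seen. Transcript lengths, shared 31-base words and coding sequences were from GENCODE M21, and promoters from RefSeq. Alternatives were library size only, RLE, no filter, protein-coding genes only, leaving out Lars2, Gm15662 and mitochondrial genes, a length and GC offset (mgcv 1.9.3), DESeq2 1.42.0, and leaving out each peptide library. The single values of 1 member and 1 marker are not reported here, though both enter the counts, sums and medians.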

Additional observations from a re-analysis of the deposited data

How the results depend on the processing

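No paired analysis was possible because the groups compared share fewer than 2 replicate numbers. In the column names CAM carries the number 1, M-CSF the number 2, and the peptide libraries 1 and 2. Whether a number marks a shared culture is not given in the sources used here. If it does, number and treatment cannot be told apart in CAM against M-CSF, and a block on the number would leave no residual degrees of freedom. Counts of members lower in CAM than M-CSF (20) and higher with peptide than in CAM (17) stayed within 1.5 times under RLE, no filter, protein-coding genes only and leaving out Lars2, Gm15662 and mitochondrial genes. With library size only, CAM against M-CSF gave 0 higher and a median of -1.44 (-0.55 over all genes), peptide against CAM a median of 0.75 (0.13 over all genes), and peptide against M-CSF 0 higher, 11 lower and a median of -0.46. With the length and GC offset, CAM against M-CSF gave 0 higher and a median of -0.81, peptide against CAM gave 11 higher, 1 lower (Ndufs8) and a median of 0.48, and peptide against M-CSF a median of -0.19. With DESeq2, CAM against M-CSF gave 0 higher and 5 lower, peptide against CAM 11 higher, and peptide against M-CSF 0 higher and 2 lower. With protein-coding genes only, the last comparison had a median of -0.01. The cause of these differences was not tested.

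Leaving out 1 peptide library leaves no residual degrees of freedom, so those values carry no test. The median for CAM against M-CSF then ran from -0.96 to -0.93, with 18 to 20 members at least 2-fold lower. For peptide against CAM it ran from 0.63 to 0.73, with 14 to 15 at least 2-fold higher. For peptide against M-CSF it ran from -0.04 to 0.04, reversing sign without peptide library 2, with 1 to 2 members at least 2-fold higher and 3 lower, against 3 and 4 in the full data. No named gene past the threshold changed sign under an alternative. CAM held 0 to 367 counts per tested member (median 101), so small differences of scarce members were not detectable at this depth.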
